A study of Mus musculus with 6 samples.

Results

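The interferon response and the presentation of antigens on major histocompatibility complex (MHC) class I molecules were followed through 38 named genes in the cerebellum of mice with a weakened Sp4 gene. The genes were chosen by name, as interferon-stimulated and class I genes, with no threshold on their values, and all 38 had a probe on the array, 76 probes in all, out of 19057 genes named by the platform annotation. Of these 38 members, 26 had a probe above background on at least 3 of the 6 arrays and were tested, among 10764 tested genes. The 3 hypomorphic animals carried the genotype labelled Sp4neo-/- and the 3 wild-type animals the genotype labelled WT. All were males of a Black Swiss X CD1 cross at postnatal day 21, described as littermate pairs, and total RNA of the cerebellum was labelled with biotin and read on Illumina bead arrays. A hypomorph makes less of a gene's product, or a weaker one, and Sp4 is a transcription factor that binds GC-rich promoter elements. Neither parent stock is inbred, so animals can carry different alleles of the class I genes, and whether such alleles alter the binding of a probe was not tested.

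Interferons are signals of infection. Type I interferons bind a receptor that activates the kinases Jak1 and Tyk2, which phosphorylate Stat2. Stat2 joins Irf9 in a complex that binds the interferon-stimulated response element (ISRE) of target promoters, while interferon gamma acts on the gamma-activated site (GAS). The targets include proteins that block viral translation and replication, GTPases that attack intracellular microbes, and the proteasome subunits, peptide transporters and class I chains that show peptides to T cells. In uninfected brain it is known to run at a low level.

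The promoters of 4 members are shown because they hold these elements beside values described further on. They cover 250 bases before and 50 bases after the annotated start, in RefSeq's annotation of GRCm38.p6, written 5′ to 3′ on the strand of the gene. Capitals mark matches, on either strand, to the ISRE core GAAANNGAA, the GAS TTCNNNGAA and the GC box GGGCGG, which Sp factors are known to bind.
Myd88 (chr9:119339969-119340268, strand -): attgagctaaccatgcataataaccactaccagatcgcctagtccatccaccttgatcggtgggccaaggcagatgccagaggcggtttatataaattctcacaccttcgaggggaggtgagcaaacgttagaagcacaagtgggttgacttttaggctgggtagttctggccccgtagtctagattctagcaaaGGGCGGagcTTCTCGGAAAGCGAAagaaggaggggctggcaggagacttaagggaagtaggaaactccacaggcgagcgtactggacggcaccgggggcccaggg
Eif2ak2 (chr17:78882523-78882822, strand -): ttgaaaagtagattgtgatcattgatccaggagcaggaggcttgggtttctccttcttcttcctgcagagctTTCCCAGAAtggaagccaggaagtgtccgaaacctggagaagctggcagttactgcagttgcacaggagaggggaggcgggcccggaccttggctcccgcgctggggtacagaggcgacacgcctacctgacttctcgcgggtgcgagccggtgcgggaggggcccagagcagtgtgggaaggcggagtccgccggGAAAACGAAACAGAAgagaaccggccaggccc
Gbp3 (chr3:142559794-142560093, strand +): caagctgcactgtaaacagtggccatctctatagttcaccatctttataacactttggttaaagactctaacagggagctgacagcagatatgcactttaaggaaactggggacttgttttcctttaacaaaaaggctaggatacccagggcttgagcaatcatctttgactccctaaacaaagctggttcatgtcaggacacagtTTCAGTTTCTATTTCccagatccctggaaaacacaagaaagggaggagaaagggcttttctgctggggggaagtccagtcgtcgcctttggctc
B2m (chr2:122147437-122147736, strand +): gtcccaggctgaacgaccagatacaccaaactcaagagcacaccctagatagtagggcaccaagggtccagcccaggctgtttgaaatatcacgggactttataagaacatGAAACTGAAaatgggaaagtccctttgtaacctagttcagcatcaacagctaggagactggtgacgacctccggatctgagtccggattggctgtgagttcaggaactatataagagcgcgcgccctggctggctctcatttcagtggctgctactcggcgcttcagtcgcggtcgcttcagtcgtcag

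In the Myd88 window a GC box at -55, a GAS at -46 and an ISRE core at -40 from the start lay side by side, and the last 3 bases of the GAS were the first 3 of the ISRE core. Eif2ak2 had a GAS at -178 and overlapping ISRE cores at 18 and 24, after the start. Gbp3 had overlapping ISRE cores at -44 and -38 in the window shown, while the window of its other annotated start held none of the 3 motifs, and B2m had an ISRE core at -139. Promoters of 30 members were found, in 35 windows since some genes have several starts. The ISRE core was in 17 of the 35 windows (48.6%), against 8.56% of all 32851 promoter windows of the same length. The GAS was in 10 of the 35 windows (28.6%), against 8.3% of all. The GC box was in 16 of the 35 windows (45.7%), against 35.7% of all. A match is a run of letters and not a measured binding site.

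The arrays gave between 18656 and 20135 probes above background. Values below are log2 intensities after background correction and quantile normalization, each from 1 animal. Sp4 itself read 5.99, 5.80 and 6.32 on the hypomorph arrays, against 7.82, 6.86 and 7.35 on the wild-type arrays, so the groups stood apart in the direction of the labels. Tissue markers fitted the label in that the 7 tested cerebellar markers, among them the Purkinje cell gene Pcp2 and the granule cell gene Gabra6, were above background on every array. The granule cell gene Cbln3 and the Purkinje cell gene Calb1 had probes that were not above background on any array. No probe passed an adjusted p of 0.05 in limma, which is 0% of 19515 tested probes, and 5.31% had an unadjusted p under 0.05. A single value in groups of 3 cannot reach an exact two-sided permutation p under 0.1.

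The share of member probes above background was near that of the whole array. Probes of members were above background on no array in 33 of 76 cases (43.4%), against 49.5% of all probes, and on all 6 arrays in 29 cases (38.2%), against 36.7%. Irf7, the factor that amplifies type I interferon, had no array above background, and neither had Ifit1, which binds foreign RNA caps, Oas1a, which makes the messenger that switches on RNase L, or Mx1, an antiviral GTPase. Ifi35, Rtp4, Xaf1, the viral RNA sensor Ddx58 (RIG-I) and the peptide transporter subunit Tap1 were likewise below background on all 6 arrays, which makes 9 members with no measured level. For 3 more members, Dhx58, Psmb9 and Iigp1, no probe reached 3 arrays. Psmb9, an inducible proteasome subunit, was above background on wild-type arrays 1 and 2 and on no hypomorph array. It read 5.75, 5.17 and 5.01 in the hypomorph, against 6.10, 5.81 and 5.29 in wild type, so the groups overlapped near background. Dhx58, a relative of RIG-I, was above background on wild-type arrays 2 and 3 on 1 of its 4 probes and on wild-type array 3 on another. The first read 5.52, 5.55 and 5.54 in the hypomorph, against 4.71, 6.07 and 6.12 in wild type. The other read 4.92, 5.52 and 5.53 in the hypomorph, against 4.87, 5.52 and 5.99 in wild type. The groups overlapped on both. Iigp1, a GTPase that attacks parasite vacuoles, was above background on hypomorph array 2 alone. That probe read 4.86, 5.61 and 5.08 in the hypomorph, against 5.46, 5.22 and 5.25 in wild type.

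Of the 26 tested members none passed after adjustment. The lowest adjusted p among them was 0.225. By their brightest probe 20 members were lower and 6 higher in the hypomorph (76.9% lower), against 51.9% lower over all tested genes, and the median log2 difference, hypomorph minus wild type, was -0.18 beside -0.01 over all tested genes. At an unadjusted p under 0.05 stood 4 members, 1 higher and 3 lower, where 5.23% of tested genes did so, 2.23% higher and 3% lower. The groups did not overlap at 5 members, 1 higher and 4 lower, where 11% of tested genes had no overlap, 5.5% higher and 5.55% lower. Of the tested members, Parp14, Oasl2 and Usp18 were above background on 1 hypomorph array and all 3 wild-type arrays, and Ifit3 on all 3 hypomorph arrays and 1 wild-type array, so they entered the test through the group where they were high and their counts are no support for a difference. Over the 21 members above background on all 6 arrays, 16 were lower, the median was -0.09, and 2 had an unadjusted p under 0.05, Myd88 higher and Gbp3 lower. The median over the 26 rested on single animals: it was -0.04 without wild type 3 and -0.30 without wild type 2. The count of 4 was 1 without hypomorph 2 and 2 without wild type 3.

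**Figure D1:**
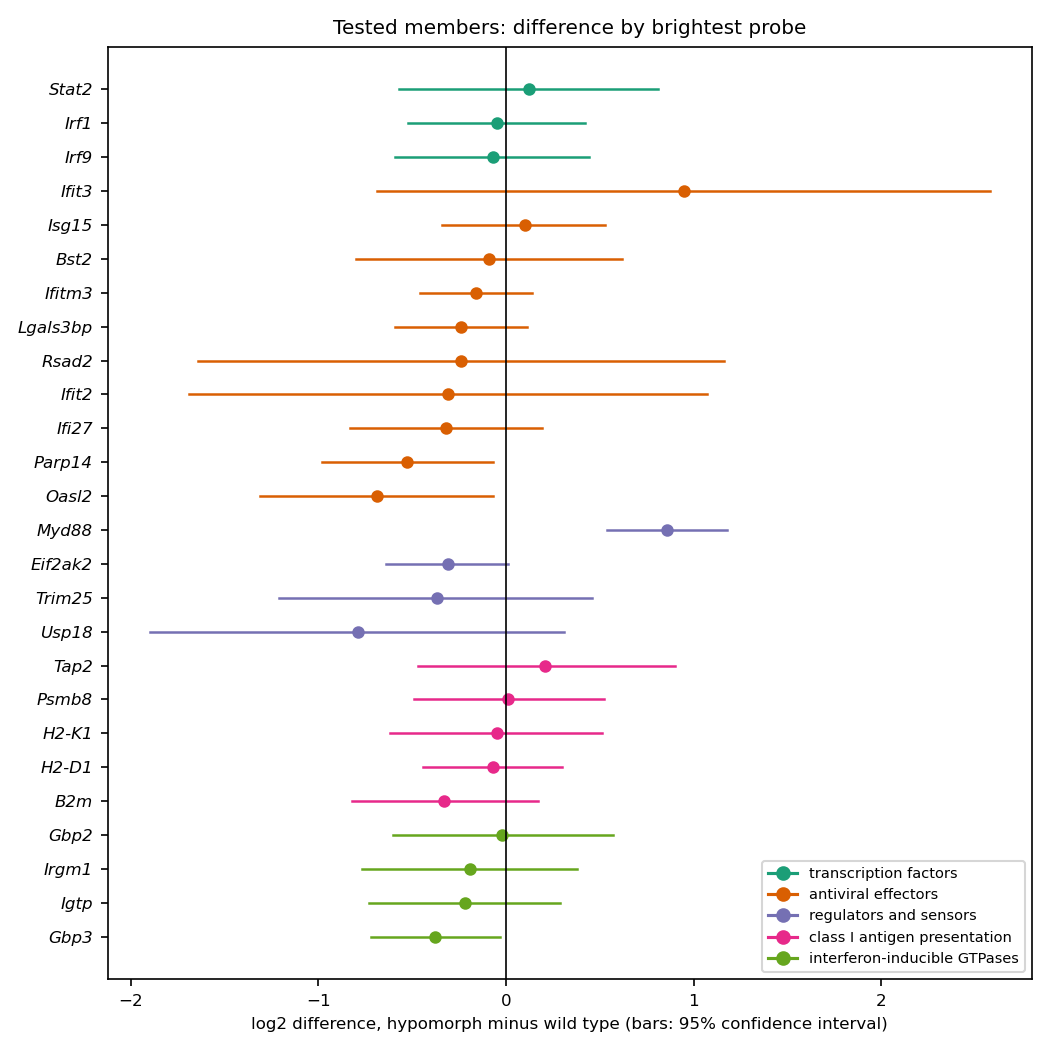
Log2 difference, hypomorph minus wild type, of the 26 tested members by their brightest probe, ordered by role, with 95% confidence intervals from limma. Myd88 (0.86) lies to the right of 0 with an interval that ends at 0.54, while Parp14, Oasl2 and Gbp3 have intervals just below 0.

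Myd88, the adaptor through which most Toll-like receptors and the interleukin-1 receptor signal, was the member with the smallest p, and it was higher in the hypomorph. Its brightest probe read 9.74, 9.94 and 9.76 in the hypomorph, against 8.90, 8.87 and 9.08 in wild type. Every hypomorph array lay well above every wild-type array, and the animals of each genotype lay close together (SD 0.11 in each group, n = 3). The log2 difference was 0.86 with an SE of 0.14, or 1.82-fold, short of the threshold (adjusted p = 0.225 and unadjusted p = 0.000312 in limma). A second, dimmer Myd88 probe read 6.62, 6.14 and 6.65 in the hypomorph, against 5.65, 5.64 and 6.16 in wild type, where wild type 1 was not above background. There the groups touched, since hypomorph 2 lay just under wild type 3, and the log2 difference was 0.65 (SE 0.21). Among all tested genes Myd88 stood at rank 15 by p, and 39 genes had a larger difference in the same direction. It was the only one of the 6 higher members whose groups did not overlap. Leaving out any 1 array gave 0.80 to 0.93, and the values processed by the authors gave 0.72 on the same probe, while its adjusted p ran from 0.0825 to 0.783 over the 14 other settings.

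Markers of the cells in which Myd88 is known to be abundant were split in direction, and the part of these cells in the Myd88 values was not tested. Of 11 tested microglia and macrophage markers 6 were higher and 5 lower in the hypomorph, with a median of 0.01, and none had an unadjusted p under 0.05. The summed intensity of these markers ran from 2987 to 3775 on hypomorph arrays, against 2714 to 3522 on wild-type arrays. P2ry12, a receptor of resting microglia, differed by 0.44 (SE 0.33) and the growth factor receptor Csf1r by -0.29 (SE 0.19), both with overlapping groups. In whole tissue, a change in the number of cells of a type and a change in RNA per cell cannot be told apart. Of the 9 T and NK cell markers the T cell receptor chains Cd3d, Cd3e and Cd3g were not above background on any array. The 1 tested, the pore-forming protein gene Prf1, was above background on all 6 arrays and read 9.44, 10.30 and 9.66 in the hypomorph, against 8.90 to 10.08 in wild type, with overlapping groups and a difference of 0.14 (SE 0.36).

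**Figure D2:**
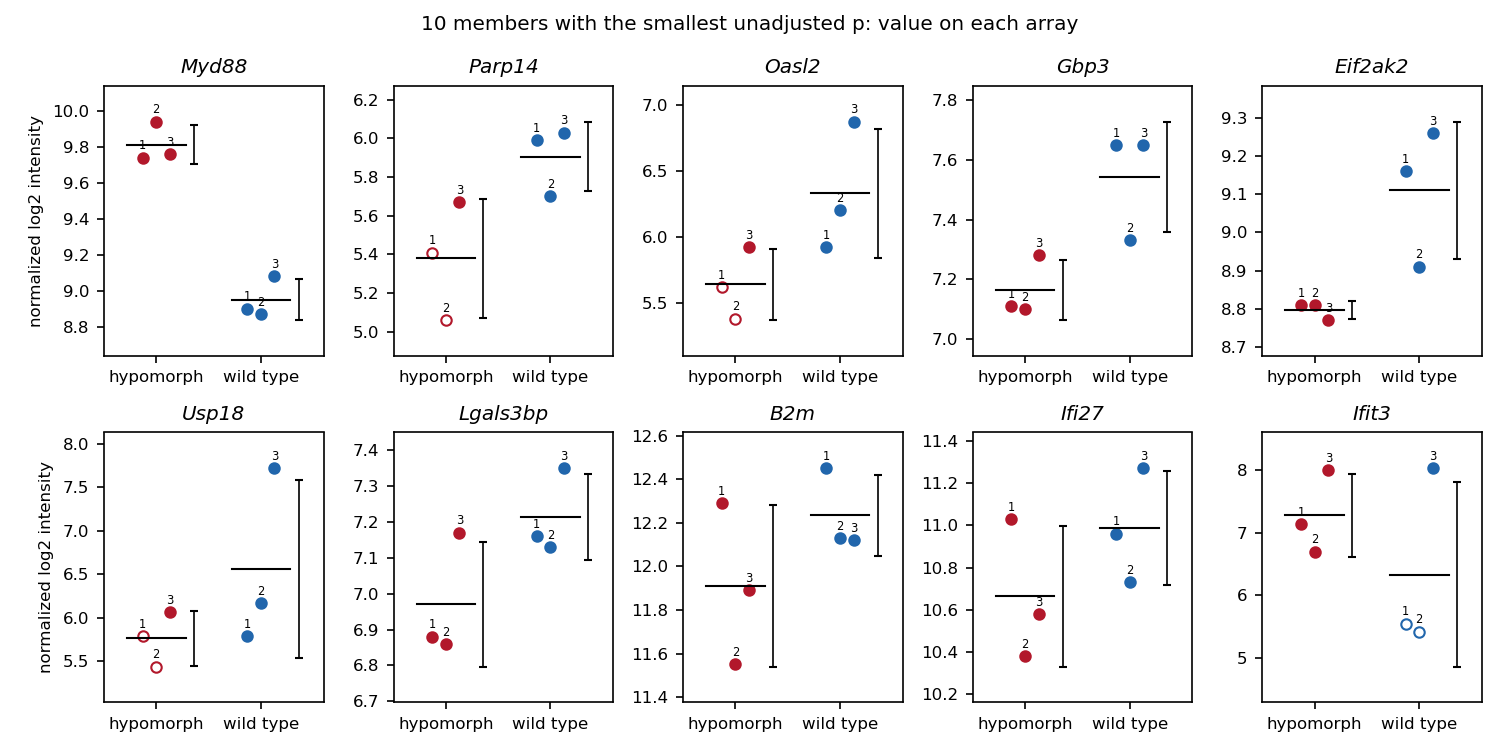
Normalized log2 intensity of the 10 members with the smallest unadjusted p, for 3 hypomorph arrays (red, left) and 3 wild-type arrays (blue, right), numbered as in the labels; open circles were not above background, horizontal lines are group means and bars are SD. The Myd88 groups lie far apart beside their spread (9.74 to 9.94 against 8.87 to 9.08), whereas in Usp18 and Ifit3 1 or 2 animals set the group mean.

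Among the other regulators and sensors, Eif2ak2 and Usp18 were lower. Eif2ak2 encodes the kinase PKR, which halts translation when it binds double-stranded RNA. It read 8.81, 8.81 and 8.77 in the hypomorph, against 9.16, 8.91 and 9.26 in wild type. The hypomorph animals were nearly alike and all lay under the wild-type animals, with a log2 difference of -0.31 (SE 0.14, adjusted p = 0.958 in limma). Usp18, which removes Isg15 from proteins and damps the type I receptor, read 5.79, 5.44 and 6.07 in the hypomorph, against 5.79, 6.17 and 7.72 in wild type. It was above background on all wild-type arrays and on hypomorph 3 only. The log2 difference of -0.79 (SE 0.47) came to -0.21 without wild type 3, whose value was far above the other five. Trim25, the ubiquitin ligase that activates RIG-I, showed the same high wild type 3, at 7.35 against 5.76 to 6.48 on the other arrays, and its difference of -0.37 (SE 0.36) came to 0.02 without it.

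Of the 10 tested antiviral effectors 8 were lower (80%, against 51.9% of all tested genes), with a median of -0.24, and none of them passed. The count is no support for a difference, since Parp14, Oasl2 and Ifit3 entered the test through the group where they were high. Parp14, an ADP-ribosyltransferase, read 5.41, 5.06 and 5.67 in the hypomorph, against 5.99, 5.70 and 6.03 in wild type, close to background. The groups did not overlap, though hypomorph 3 and wild type 2 nearly met, and only hypomorph 3 was above background among the hypomorph arrays. The log2 difference was -0.53 (SE 0.19, unadjusted p = 0.0281, adjusted p = 0.879 in limma). Oasl2, a relative of the oligoadenylate synthetases, read 5.62, 5.38 and 5.92 in the hypomorph, against 5.92, 6.20 and 6.87 in wild type. Its detection followed Parp14 and Usp18, with hypomorph 1 and 2 below background and the other 4 arrays above, and its difference was -0.69 (SE 0.27, unadjusted p = 0.0342, adjusted p = 0.9 in limma), or -0.42 without wild type 3. Values so near background are compressed, and the authors' processed values gave -0.19 for Parp14 and -0.26 for Oasl2.

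Ifi27, Ifitm3 and Lgals3bp were well above background on all arrays. Ifi27, a small membrane protein of mitochondria and the nuclear envelope, read 11.03, 10.38 and 10.58 in the hypomorph, against 10.96, 10.73 and 11.27 in wild type. Hypomorph 1 lay among the wild-type animals, and the difference was -0.32 (SE 0.22), with -0.46 (SE 0.28) on its second probe. Ifitm3, which stops viruses at the endosomal membrane, read 10.16, 10.21 and 10.19 in the hypomorph, against 10.32, 10.24 and 10.47 in wild type. These groups did not overlap, but the difference was only -0.16 (SE 0.13). Lgals3bp, a secreted galectin ligand, read 6.88, 6.86 and 7.17 in the hypomorph, against 7.16, 7.13 and 7.35 in wild type, with hypomorph 3 inside the wild-type range and a difference of -0.24 (SE 0.15). Isg15, the ubiquitin-like modifier, differed by 0.10 (SE 0.19) and Bst2 (tetherin), which holds virus particles at the cell surface, by -0.09 (SE 0.30).

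Ifit2, Ifit3 and Rsad2 differed more between animals of a genotype than between genotypes. For Ifit2 and Ifit3 the order of the animals followed the array number. Ifit2 fell from array 1 to array 3 in both genotypes, and Ifit3 was lowest on array 2 and highest on array 3 in both. The order of Rsad2 differed between the genotypes. The labels do not say that a number marks a litter. Ifit3, which stabilizes Ifit1 on RNA, read 7.14, 6.70 and 8.0 in the hypomorph, against 5.55, 5.42 and 8.03 in wild type. Wild type 1 and 2 were not above background while wild type 3 was the highest of all, so the largest difference among members, 0.95, had an SE of 0.70 and an interval from -0.69 to 2.58. It came to 1.80 without wild type 3 (adjusted p = 0.621 in limma) and 0.49 at the lowest with another array left out. Array weights gave 0.31 and the values processed by the authors gave 0.37. With the replicate block it stayed at 0.95 (unadjusted p = 0.0256, adjusted p = 0.481 in limma). A second Ifit3 probe was above background on hypomorph 2 and 3 and on no wild-type array. It read 5.38, 5.59 and 5.72 in the hypomorph, against 5.25, 5.05 and 5.61 in wild type, so the groups overlapped near background. Ifit2, a pro-apoptotic relative, read 7.93, 7.17 and 6.76 in the hypomorph, against 8.82, 7.59 and 6.39 in wild type, with a difference of -0.31 (SE 0.59), and its second probe differed by -0.80 (SE 0.40). Rsad2 (viperin), which makes a chain-terminating nucleotide, read 5.59, 7.41 and 5.79 in the hypomorph, against 7.09, 5.42 and 7.0 in wild type, with hypomorph 1 and wild type 2 below background. The pooled SD within groups was 1.14 for Ifit3, 0.97 for Rsad2, 0.96 for Ifit2 and 0.76 for Usp18, each larger than for at least 98.9% of tested genes. The median pooled SD was 0.31 over the members and 0.21 over all tested genes.

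Class I genes had small differences, with overlapping groups at all 5 tested members. B2m, the invariant light chain of class I molecules, read 12.29, 11.55 and 11.89 in the hypomorph, against 12.45, 12.13 and 12.12 in wild type. Hypomorph 2 was the lowest and hypomorph 1 lay among the wild-type arrays, and the log2 difference was -0.33 (SE 0.21), or -0.23 (SE 0.25) on the second probe, where hypomorph 2 was again the lowest. Without hypomorph 2 the first was -0.15. H2-D1, a class I heavy chain, read 12.32, 12.39 and 12.36 in the hypomorph, against 12.52, 12.61 and 12.15 in wild type. The hypomorph animals lay together inside the wild-type range, and the 3 tested probes differed by -0.07 (SE 0.16), -0.14 (SE 0.18) and -0.17 (SE 0.18). H2-K1, the other classical heavy chain on the list, read 6.81, 6.25 and 5.92 in the hypomorph, against 6.16, 6.56 and 6.42 in wild type, with a difference of -0.05 (SE 0.24), and -0.16 (SE 0.22) on its second probe. No array dropped to background on the bright H2-D1 probes, while 1 further probe each of B2m, H2-D1 and H2-K1 was below background on all 6 arrays. On the second H2-K1 probe hypomorph 3 alone was below background, at 5.57 against 6.03 to 6.36 on the other arrays. Class I heavy chains are closely related in sequence, so a probe may read more than one of them. Of the genes that make and load the peptides, Psmb8, an inducible proteasome subunit, differed by 0.01 (SE 0.22) and Tap2, a transporter subunit, by 0.21 (SE 0.29). The interval of the difference ran from -0.44 to 0.30 for H2-D1, from -0.62 to 0.51 for H2-K1 and from -0.82 to 0.17 for B2m.

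**Figure D3:**
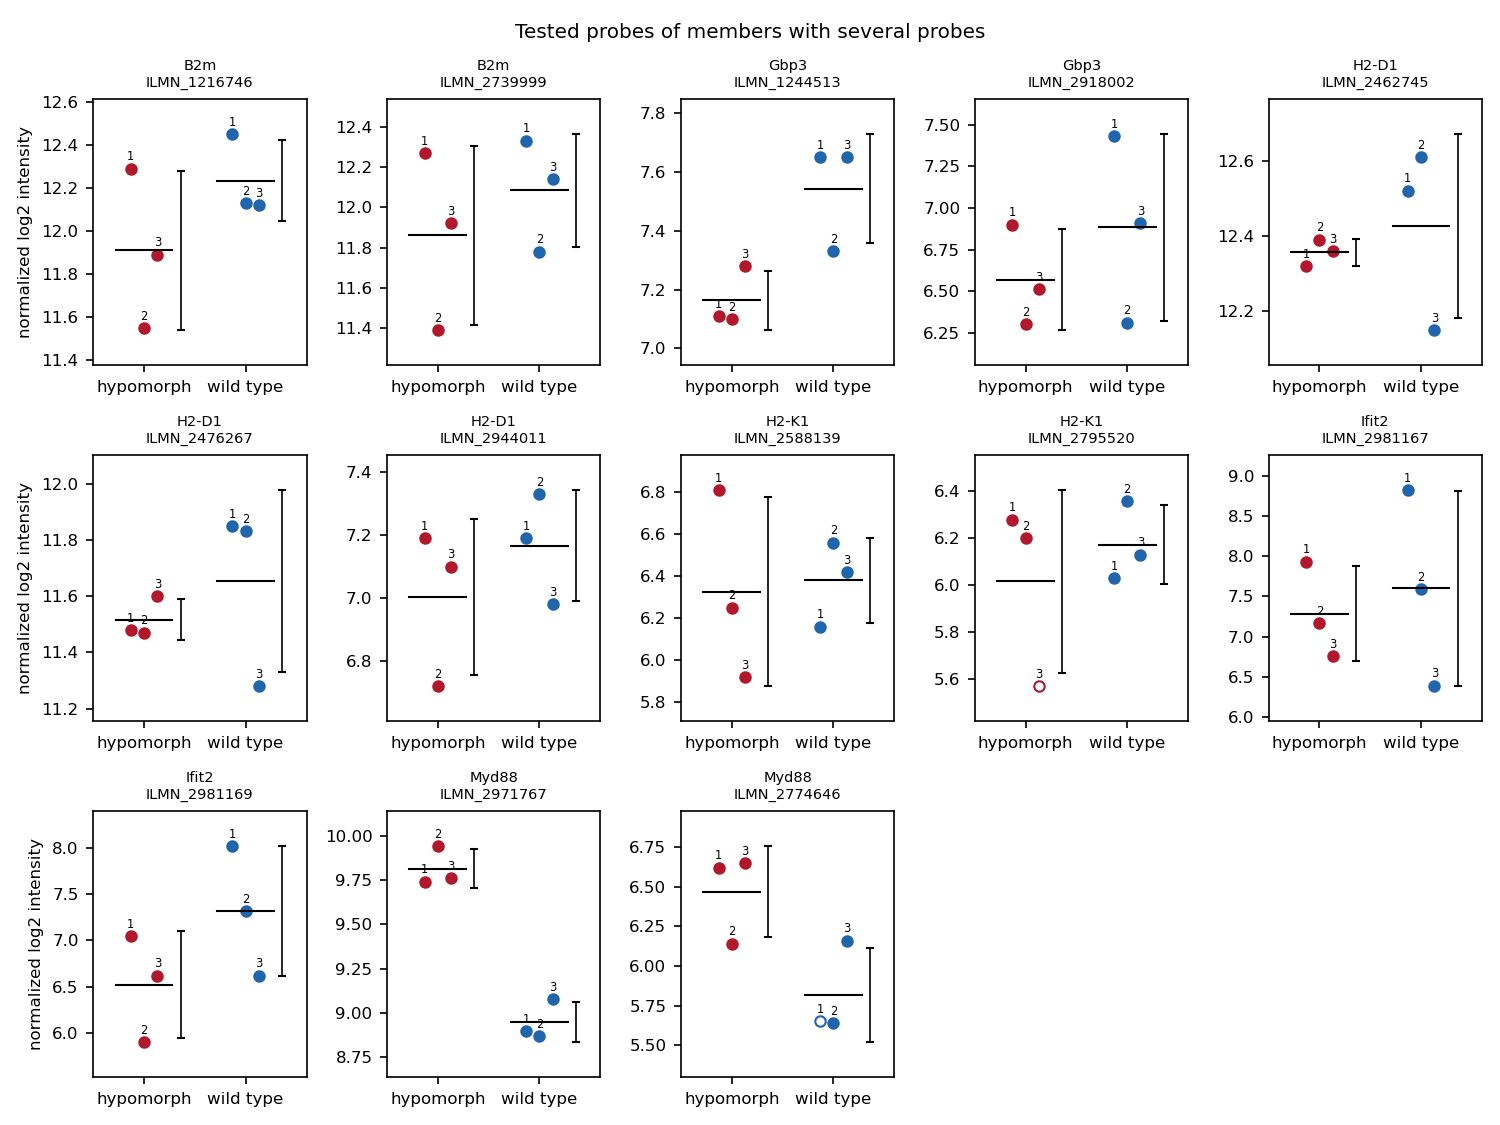
Normalized log2 intensity on each array for the 13 tested probes of B2m, Gbp3, H2-D1, H2-K1, Ifit2 and Myd88, hypomorph (red, left) and wild type (blue, right); open circles were not above background, lines are means and bars SD. Both Myd88 probes are higher in the hypomorph, and hypomorph 2 is the lowest array on both B2m probes.

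All 4 tested interferon-inducible GTPases had differences below 0, as had 51.9% of all tested genes. Gbp3, a guanylate-binding protein of the kind that coats microbes and their vacuoles, read 7.11, 7.10 and 7.28 in the hypomorph, against 7.65, 7.33 and 7.65 in wild type. The groups did not overlap but nearly met at hypomorph 3 and wild type 2, and the log2 difference was -0.38 (SE 0.15, unadjusted p = 0.0376, adjusted p = 0.903 in limma). Its second probe gave -0.32 (SE 0.30) with overlapping groups. Igtp, which acts at pathogen vacuoles, differed by -0.22 (SE 0.22) and Gbp2 by -0.02 (SE 0.25). Irgm1, a regulator of the other immunity-related GTPases and of autophagy, disagreed between probes: -0.19 (SE 0.24) on the brightest and 0.12 (SE 0.21) on another, while 1 more was below background on every array.

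The factors that drive the programme showed small differences. Stat2 read 8.74, 8.98 and 8.69 in the hypomorph, against 8.30, 9.38 and 8.36 in wild type, so that the hypomorph animals lay between the wild-type extremes, with a difference of 0.12 (SE 0.29). Irf9 differed by -0.07 (SE 0.22). Irf1, which carries the interferon gamma signal to class I genes, differed by -0.05 (SE 0.20) on the brightest probe and -0.09 (SE 0.22) on a second, and its other 3 probes were below background on all arrays.

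**Figure D4:**
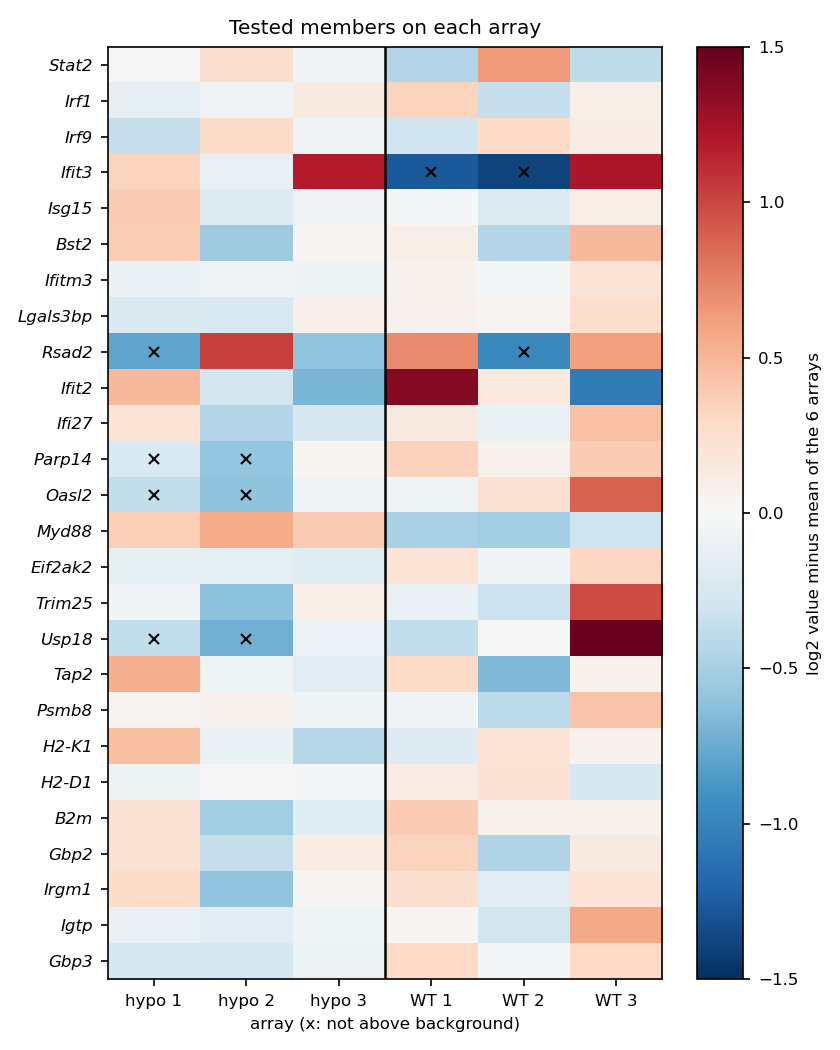
Log2 value of each of the 26 tested members on each array minus its mean over the 6 arrays, hypomorph left and wild type right, with members ordered by role and crosses where the probe was not above background. Wild type 3 is the highest array for 13 members and hypomorph 2 the lowest for 10, with no count over all tested genes beside them.

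The members were unevenly spread over the animals. Hypomorph 1, 2 and 3 were the highest of the 6 arrays for 4, 2 and 0 members, against 4, 3 and 13 members for wild type 1, 2 and 3. Hypomorph 2 was the lowest array for 10 members, followed by wild type 2 for 9. The same counts were not made over all tested genes, so they are not shown to be particular to the members. The median deviation of the 26 members from their own means was -0.02, -0.17 and -0.06 on the hypomorph arrays, against 0.08, -0.07 and 0.23 on the wild-type arrays. Endothelial markers, of which 6 of 10 tested were lower in the hypomorph with a median of -0.06, stood at median deviations of -0.21, -0.11 and 0.04 on the hypomorph arrays, against 0.12, -0.10 and 0.18 on the wild-type arrays. Microglia markers stood at -0.05, -0.24 and 0.10 on the hypomorph arrays, against 0.03, -0.20 and 0.15 on the wild-type arrays. By this median wild type 3 was the highest array for both of these lists too. By summed intensity the highest was hypomorph 3 for microglia markers (3775, against 3522 on wild type 3). For endothelial markers it was hypomorph 2 (9826, against 9720 on wild type 3). The part of these cells in the members' values was not tested. The summed intensity of the 10 tested of 12 endothelial markers ran from 8056 to 9826 on hypomorph arrays, against 8483 to 9720 on wild-type arrays. At an unadjusted p under 0.05 stood 2 of these markers, both lower in the hypomorph without overlap: the receptor gene Tie1, with a log2 difference of -0.49 (SE 0.19), and the thyroid hormone transporter gene Slco1c1, with -0.35 (SE 0.14).

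A wider list of 109 further genes of the same pathways was drawn up from textbook knowledge. Earlier results of these data were known by then, so the list is no independent support for the members. It had 52 tested genes, 32 lower and 20 higher (61.5% lower, against 51.9% of all tested genes), with a median of -0.05. None passed after adjustment, and 5 had an unadjusted p under 0.05, all lower, where 3% of all tested genes were lower at that p. The groups did not overlap at 2 higher and 4 lower genes of the 52. Over all tested genes 11% had no overlap, 5.5% higher and 5.55% lower. Ifngr1, the ligand-binding chain of the interferon gamma receptor, read 7.71, 7.15 and 7.82 in the hypomorph, against 8.12, 8.46 and 8.24 in wild type. The groups did not overlap, and the log2 difference was -0.71 (SE 0.21, adjusted p = 0.733 in limma). Psme2, a subunit of the proteasome activator that interferon gamma induces, read 7.67, 7.09 and 7.49 in the hypomorph, against 8.46, 7.82 and 8.27 in wild type, again without overlap and with a difference of -0.77 (SE 0.22, adjusted p = 0.733 in limma). Pml, the scaffold of nuclear bodies, differed by -0.63 (SE 0.19) and Ifnar2, a chain of the type I receptor, by -0.52 (SE 0.21), both without overlap. A second probe of Ifnar2 differed by -0.38 (SE 0.18) with overlapping groups. Irgm2, a GTPase, differed by -0.49 (SE 0.20), and its groups overlapped, with hypomorph 3 at 6.82 and wild type 2 at 6.80. H2-T10, a non-classical class I gene, differed by -0.58 (SE 0.32) with overlapping groups. By role, 14 of 16 other interferon-stimulated genes were lower (87.5%, against the same 51.9%) with a median of -0.17, and 9 of 13 genes of antigen processing and MHC were lower with a median of -0.10. Of 10 sensors and adaptors 7 were higher with a median of 0.11, and of 10 genes of ligands, receptors and JAK-STAT signalling 6 were lower with a median of -0.06. The 3 tested regulatory factors were all higher, with a median of 0.05. None of the sensors, adaptors or regulatory factors had an unadjusted p under 0.05.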

How the data were processed

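Cerebellar RNA of 3 hypomorph and 3 wild-type mice was measured on bead arrays. Per the submitters' processing notes BeadStudio was used, with no version or build given. The authors deposited linear intensity values before normalization, which go below 0 and so were background-subtracted. Each deposited value has its detection p-value. Their second table also holds intensity values, with array medians of 161.3 to 161.5 and ranks within each array equal to the first (rank correlation 1). Its values lay above the first by a median of 140.6 to 142.8 on each array, and such a shift shrinks log2 differences of dim probes. How this second table was made is unstated, and it served as an alternative.

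Here nec of limma 3.58.1 (R 4.3.3) corrected background from the detection p-values with an offset of 16, followed by quantile normalization and log2. Probes detected (p under 0.05) on at least 3 arrays were tested over the whole table with lmFit and eBayes (no block, hypomorph minus wild type), with Benjamini-Hochberg adjustment. The offset shrinks differences of dim probes. The number of arrays limits the precision. A gene stood by its brightest tested probe. The platform annotation gave 1 gene symbol for 34885 probes, several for 18 and none for 10378. Values on each array were given for the 10 members with the smallest unadjusted p, for B2m, H2-D1 and H2-K1 and for members with detection that followed the groups; of the wider list the 6 smallest p were named. Other members shown array by array (Ifitm3, Ifit2, Rsad2, Stat2) and the markers named were chosen after their values were seen. The members and lists were chosen with earlier results of these data known. The fit was tested on simulated data with noise drawn independently for each array, which left out any correlation between same-numbered arrays. Promoter windows came from RefSeq. Alternatives changed the normalization (median scaling, no background correction, the authors' values), the filter (none, or detection on all 6 arrays), the fit (intensity trend with robust moderation, array weights, a replicate block), the probe of a gene (mean over probes) and the arrays (each left out).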

Additional observations from a re-analysis of the deposited data

How the results depend on the processing

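No member passed an adjusted p of 0.05 in any of the 14 other settings in which it was tested. The count of probes passing, 0 as reported, was 2 with the replicate block, 5 without background correction, 8 with the authors' values, 3 with detection on all 6 arrays, 8 with an intensity trend and 13 with array weights, and 0 to 2 with 1 array left out. Members at an unadjusted p under 0.05, 4 as reported, numbered 2 with the authors' values, 2 with detection on all 6 arrays, 2 with an intensity trend and 8 with array weights, and 1 to 5 with 1 array left out. The median of the members, -0.18 as reported, was -0.08 with the authors' values, -0.08 over all 38 members with no filter and -0.09 over the 21 detected on all 6 arrays, and ran from -0.24 to -0.14 with the remaining settings of all arrays and from -0.30 to -0.04 with 1 array left out. Psmb8 turned to -0.02 with median scaling, -0.0042 with the authors' values and -0.27 with array weights, which also turned Ifit2 to 0.13 and H2-D1 to 0.08. With 1 array left out the sign turned in 28 of 192 cases (26 members and 6 genes of the wider list), all at these members: Tap2 (-0.06 to 0.41), Isg15 (-0.07 to 0.22), Rsad2 (-0.81 to 0.10), Irf9 (-0.24 to 0.08), Irf1 (-0.24 to 0.10), Ifit2 (-0.92 to 0.30), Stat2 (-0.07 to 0.47), Gbp2 (-0.25 to 0.16), Psmb8 (-0.18 to 0.23), Irgm1 (-0.38 to 0.06), Bst2 (-0.33 to 0.15), H2-D1 (-0.21 to 0.02), H2-K1 (-0.29 to 0.15), Trim25 (-0.62 to 0.02) and Igtp (-0.41 to 0.01). The cause was not tested. The labels give both genotypes the numbers 1 to 3 without saying that a number marks a litter. Deviations of same-numbered arrays correlated at 0.437, 0.400 and 0.062, so the last pair is not shown to be one, although each array correlated best with its own number. With the replicate block 6 members had an unadjusted p under 0.05, and the median stayed at -0.18. Dim probes limit what can be seen: 9 members had no array above background, and their levels are not compared.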
